A study of Mus musculus with 3 samples.

Results

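The genes described here encode the MHC class I antigen-presentation pathway: *B2m*, *H2-K1*, *H2-D1*, *Tap1*, *Tap2*, *Tapbp*, *Psmb8*, *Psmb9*, *Erap1* and *Nlrc5*. The set was chosen with earlier results of these data known. Its genes were found by gene symbol and not by signal, through the RefSeq accession that each array probe carries. They are 10 of the 22911 genes that could be named, through 32994 (58.3%) of the 56605 probes on the array. Of the 10 genes, 5 were measured by 1 probe and 5 by 2 probes, and all 15 probes are given.

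Gene expression was measured in Colon26, a murine colon adenocarcinoma line from a female mouse of the BALB/c strain, and in its sublines LuM1, labelled as highly metastatic, and NM11, labelled as weakly metastatic. All 3 lines were kept in the same medium with serum and antibiotics, and the labels name no treatment. After 3 days of culture, 0.1 µg of total RNA per line was labelled with Cy3 and hybridized to 1 single-colour mouse array per line, all on 1 slide. With 1 array per line, the differences between lines have no replicates behind them, and none was tested. The labels do not say whether a subline is a single clone, so a difference belongs to these RNA preparations and cannot be assigned to metastatic behaviour.

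Class I molecules present peptides from inside the cell to CD8+ T cells. The proteasome cuts proteins into peptides, the TAP transporter moves these into the endoplasmic reticulum, tapasin brings the transporter and the class I molecule together, and aminopeptidases trim peptides to a length that fits the groove. A heavy chain then leaves for the cell surface with a peptide and with beta-2 microglobulin. Interferon-gamma is the classical inducer of the pathway, and NLRC5 is a transcriptional coactivator of class I genes that acts at a conserved promoter module. Tumor cells often carry low class I levels.

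A scaled signal is the background-corrected brightness of a probe after each array was brought to the same 75th percentile, in arbitrary units. Probes differ in brightness for reasons other than RNA level, so signals were compared between lines for the same probe and never between genes. The ± values are the error that the scanner software gives for a spot, and a log2 ratio is called beyond that error when it is larger than 1.96 times the error propagated from both arrays. Between 49.9% and 53.8% of probes were well above background per array, no spot was saturated, and none of the 15 probes was marked as an outlier. Of the 15 probes, 13 were well above background on all 3 arrays. Where a probe was not, its ratio is a bound, taken against the dim probe's own signal or the lowest signal well above background on that array, whichever was higher.

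*B2m* encodes beta-2 microglobulin, the light chain shared by class I molecules. Its probe gave a scaled signal of 25956 ± 2596 in Colon26, 64026 ± 6403 in LuM1 and 58345 ± 5834 in NM11. Both sublines therefore lay above the parental line, 2.47-fold in LuM1 (log2 ratio 1.30) and 2.25-fold in NM11 (1.17), while LuM1 and NM11 differed by less than the scanner error (0.13). The NM11 ratio kept its sign but fell within 2-fold when the arrays were scaled to *Hprt* (0.68).

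*H2-K1* and *H2-D1* encode the classical heavy chains. The only *H2-D1* probe read 16321 ± 1632 in Colon26, 40240 ± 4024 in LuM1 and 23488 ± 2349 in NM11. It was 2.47-fold higher in LuM1 than in Colon26 (1.30), 1.44-fold higher in NM11 (0.53) and 1.71-fold higher in LuM1 than in NM11 (0.78), each beyond the scanner error. With scaling to *Hprt* (0.04) or to spiked-in E1A RNA (0.20) the NM11 over Colon26 ratio was within that error. The brighter *H2-K1* probe read 24092 ± 2409, 39056 ± 3906 and 26604 ± 2660 in Colon26, LuM1 and NM11. It was 1.62-fold higher in LuM1 than in Colon26 (0.70), and its NM11 over Colon26 ratio of 0.14 was within the error and turned negative when the arrays were scaled to *Hprt* or E1A. The dimmer *H2-K1* probe read 7625 ± 763, 17316 ± 1732 and 11273 ± 1127, which is 2.27-fold higher in LuM1 (1.18) and 1.48-fold higher in NM11 (0.56, and 0.08 with scaling to *Hprt*). Both *H2-K1* probes and the *H2-D1* probe thus placed LuM1 first, but the *H2-K1* probes disagreed on whether LuM1 was past 2-fold. Class I genes are close paralogs and vary between strains, and the probe sequences are not in the tables used here, so it cannot be told how much of a signal comes from the named gene.

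The upstream sequences of the light and heavy chain genes are shown because they share the promoter module through which class I genes are known to be regulated. RefSeq gave windows from 250 bases before to 50 bases after a transcription start on GRCm38.p6 for 8 of the 10 genes, all but *Nlrc5* and *Tap2*. The assembly is from another mouse strain than BALB/c. Each line below is the strand of the gene, 5′ to 3′, from the given distance to the last base before the start, 200 bases for the first 3 genes and 250 bases for *Tap1*. *H2-K1* has more than 1 start in the table and is shown for one of them. Capitals mark matches to the motifs searched on both strands.
*B2m* promoter, chr2:122147487-122147686, plus strand: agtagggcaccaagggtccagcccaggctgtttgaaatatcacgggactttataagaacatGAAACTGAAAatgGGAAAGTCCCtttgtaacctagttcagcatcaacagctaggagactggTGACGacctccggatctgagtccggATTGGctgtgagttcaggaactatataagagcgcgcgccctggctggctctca
*H2-K1* promoter, chr17:34000334-34000533, minus strand: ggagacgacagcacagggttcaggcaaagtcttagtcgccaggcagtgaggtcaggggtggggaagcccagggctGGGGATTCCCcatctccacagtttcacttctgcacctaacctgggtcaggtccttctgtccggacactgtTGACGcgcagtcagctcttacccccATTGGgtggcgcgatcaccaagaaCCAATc
*H2-D1* promoter, chr17:35262894-35263093, plus strand: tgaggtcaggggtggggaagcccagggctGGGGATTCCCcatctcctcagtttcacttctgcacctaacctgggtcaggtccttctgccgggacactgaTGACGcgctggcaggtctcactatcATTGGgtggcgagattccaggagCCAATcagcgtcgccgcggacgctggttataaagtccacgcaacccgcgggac
*Tap1* promoter, chr17:34187306-34187555, plus strand: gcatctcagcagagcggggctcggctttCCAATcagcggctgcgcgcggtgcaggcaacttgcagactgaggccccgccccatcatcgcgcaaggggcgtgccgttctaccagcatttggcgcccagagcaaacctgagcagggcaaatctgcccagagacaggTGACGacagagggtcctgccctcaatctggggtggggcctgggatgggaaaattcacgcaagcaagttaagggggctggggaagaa

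All 3 chain genes held the letters TGACG, a half-site of the cyclic AMP response element, followed after exactly 20 bases by ATTGG, the inverted CCAAT box. This order and gap, which was looked for after the windows had been seen, occurred in 31 of 32544 distinct promoter windows (0.0953%), and no other of the 8 members held it. With any gap of 15 to 25 bases the share was 0.439% of windows and the members were the same 3. Among the other class I and class I-like genes with a window, 18 in all, only *H2-M3* held the pair at 20 bases, and *H2-Q7* was added with the wider gap. An NF-kB site, GGGNNTTNCC, was present in the same 3 members and in 4.78% of all windows. An interferon-stimulated response element, GAAANNGAAA, was present in *B2m* and *Erap1* and in 3.45% of all windows, and a gamma-activated site, TTCNNNGAA, in *Psmb8* and in 8.33%. CCAAT alone was found in 37.4% of windows and TGACG alone in 20.9%, and this pair was added to the motifs after the planned ones. No matches overlapped in the lines shown. A match describes the letters and not a bound site. Only these exact letters were searched, so a gene without a match can still hold a variant of the site.

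**Figure D1:**
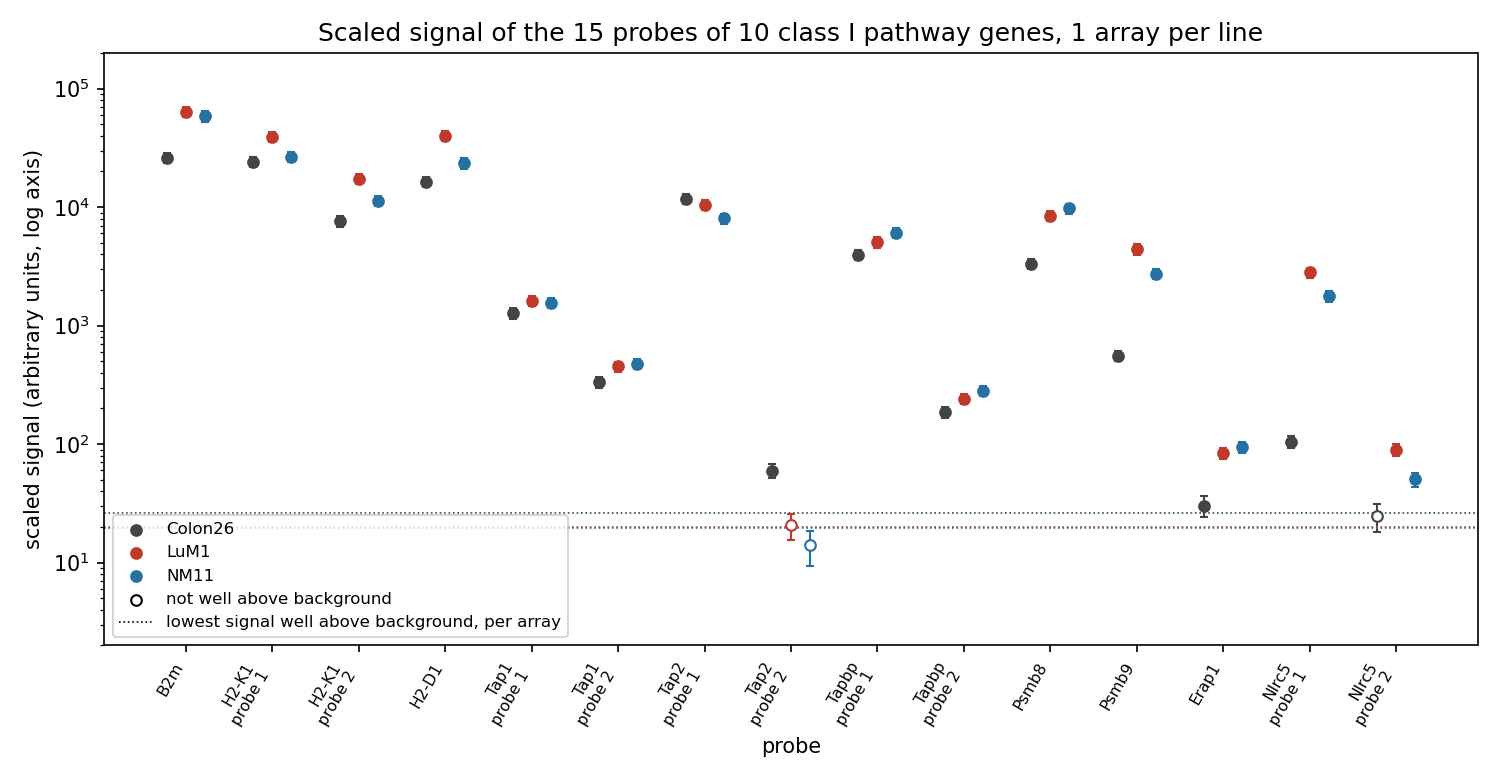
Scaled signal on a log axis (arbitrary units) of each of the 15 probes in Colon26, LuM1 and NM11, 1 array per line. Bars are the scanner software's error, open circles were not well above background, and dotted lines give the lowest signal well above background per array. Colon26 is the lowest of the 3 lines on the probes of 9 genes, all but *Tap2*, although with scaling to *Hprt* or E1A the brighter probes of *H2-K1* and *Tap1* read lower in NM11, and the lower LuM1 signal of *Tap2* turns higher after quantile normalization or with the authors' values.

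*Tap1* and *Tap2* encode the subunits of the peptide transporter. The brighter *Tap1* probe read 1269 ± 127 in Colon26, 1626 ± 163 in LuM1 and 1563 ± 156 in NM11, and none of its ratios (0.36, 0.30 and 0.06 for LuM1 over Colon26, NM11 over Colon26 and LuM1 over NM11) was beyond the scanner error. The dimmer *Tap1* probe read 333 ± 33.9, 452 ± 45.5 and 476 ± 47.8, with ratios of 0.44 and 0.51 over Colon26 just beyond the error, the latter falling to 0.03 with scaling to *Hprt*. *Tap1* therefore stayed within 2-fold on both probes. With scaling to *Hprt* or E1A, the NM11 over Colon26 ratio of the brighter probe was negative.

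*Tap2* had its lowest reading in NM11. Its brighter probe read 11719 ± 1172 in Colon26, 10503 ± 1050 in LuM1 and 8023 ± 802 in NM11, a log2 ratio of -0.16 for LuM1 over Colon26, within the error and positive after quantile normalization or with the authors' processed values, and of -0.55 for NM11 over Colon26, beyond the error. Its dimmer probe was well above background in Colon26 alone, at 59.9 ± 8.52, against 20.6 ± 5.15 in LuM1 and 14.0 ± 4.60 in NM11. As scaled here, that probe puts Colon26 at least 2.91-fold above LuM1 and at least 3.06-fold above NM11, which the brighter probe does not show. Under other processing the log2 ratios of LuM1 and NM11 over Colon26 weakened to -0.59 and -0.66, within 2-fold.

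*Tapbp* encodes tapasin. Its brighter probe read 3977 ± 398 in Colon26, 5066 ± 507 in LuM1 and 6055 ± 606 in NM11, and its dimmer probe 185 ± 19.6, 242 ± 24.7 and 282 ± 28.6. The 2 probes gave nearly the same ratios, 0.35 and 0.38 for LuM1 over Colon26, within the error, and 0.61 on both for NM11 over Colon26, beyond it, which fell to 0.12 with scaling to *Hprt* and to 0.28 with E1A on the brighter probe, within the error. Both placed NM11 highest, although its difference from LuM1 (-0.26 and -0.22 for LuM1 over NM11) was within the error and turned positive with scaling to *Hprt* or E1A or with the authors' values.

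*Psmb8* and *Psmb9* encode catalytic subunits that replace constitutive ones in the immunoproteasome. *Psmb9* read 557 ± 56.0 in Colon26, 4414 ± 441 in LuM1 and 2739 ± 274 in NM11. It was 7.93-fold higher in LuM1 than in Colon26 (2.99), 4.92-fold higher in NM11 than in Colon26 (2.30) and 1.61-fold higher in LuM1 than in NM11 (0.69). *Psmb8* read 3314 ± 331, 8436 ± 844 and 9750 ± 975, which is 2.55-fold higher in LuM1 (1.35) and 2.94-fold higher in NM11 (1.56). The sublines did not differ beyond the error in *Psmb8*, and the sign of that difference (-0.21 for LuM1 over NM11) turned with scaling to *Hprt* or E1A, with quantile normalization and with the authors' values.

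The genes *Psmb9*, *Tap1*, *Psmb8* and *Tap2* follow each other in this order on chromosome 17, with no other protein-coding gene between them in the RefSeq annotation. *Psmb9* and *Tap1* are read in opposite directions from starts 226 bases apart. The *Psmb9* start is base 25 of the *Tap1* line above, and 275 bases belong to the windows of both genes. *Psmb9* differed 7.93-fold between LuM1 and Colon26 and the brighter *Tap1* probe 1.28-fold. These genes share an intergenic region, and its part in their ratios was not tested.

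Each immunoproteasome subunit was set against the constitutive subunit whose place it takes, as a difference of log2 ratios, from which a scaling factor common to an array cancels. *Psmb9* minus *Psmb6* was 3.17 ± 0.289 for LuM1 over Colon26 and 1.85 ± 0.289 for NM11 over Colon26. *Psmb8* minus *Psmb5* was 1.99 and 1.84, and *Psmb10* minus *Psmb7* was 1.16 and 1.66, with errors of the same size. All 3 pairs had therefore shifted towards the immunoproteasome subunit in both sublines, and over all alternatives the 6 differences stayed between 1.16 and 3.19. Alternatives that only multiply an array by a factor cannot move these differences. The range therefore does not show how far they depend on such a scaling. Between the sublines, only *Psmb9* minus *Psmb6* (1.33) exceeded the error, with 0.14 for *Psmb8* and -0.50 for *Psmb10*.

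**Figure D2:**
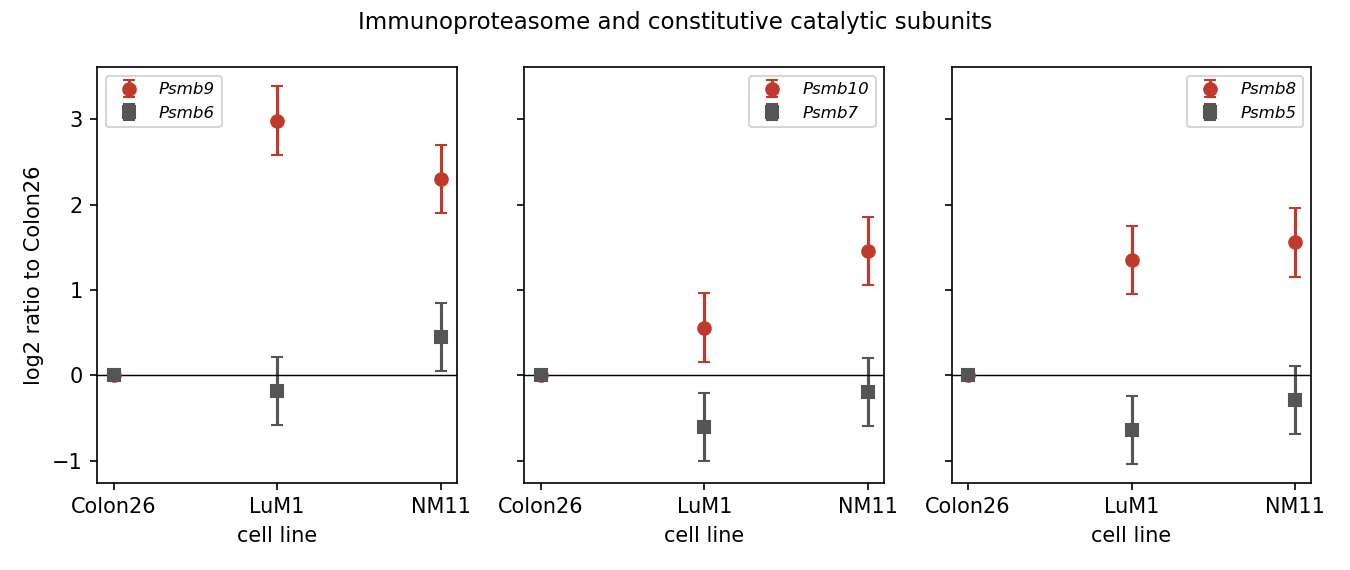
Log2 ratio to Colon26 (y axis) in each cell line (x axis) for the immunoproteasome subunits *Psmb9*, *Psmb10* and *Psmb8* (circles) and the constitutive subunits *Psmb6*, *Psmb7* and *Psmb5* (squares). Colon26 is 0 by definition and bars are 1.96 times the error propagated from both arrays. Each circle lies above its square in LuM1 and in NM11.

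The constitutive subunits themselves were within 2-fold in every comparison. *Psmb5* read 17433, 11206 and 14302 in Colon26, LuM1 and NM11, *Psmb6* read 33725, 29675 and 46135, and *Psmb7* read 6982, 4599 and 6083. *Psmb10*, the third inducible subunit and no member of the set described here, read 7470, 11009 and 20565, which was 2.75-fold higher in NM11 than in Colon26 (1.46) and within 2-fold in LuM1 (0.56). Of the 5 named genes of the list that held *Psmb10* and the proteasome activators, *Psmb10* in NM11 was the only one past 2-fold, and with scaling to *Hprt* its ratio was 0.97. Of all genes, 13.1% were higher in LuM1 and 8.33% in NM11, so this count is close to the background. *Psme1* gave 0.86 and 0.96 over Colon26 and passed 2-fold in LuM1 after quantile normalization or with the authors' values. With the latter *Psmb10* also passed it in LuM1 (1.01).

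*Erap1* encodes the aminopeptidase that trims peptides in the endoplasmic reticulum. Its probe was dim, at 30.2 ± 6.13 in Colon26, 83.5 ± 9.29 in LuM1 and 94.9 ± 10.3 in NM11. The ratios over Colon26 were 1.46 (2.76-fold) in LuM1 and 1.65 (3.14-fold) in NM11. The Colon26 signal lay just above that array's lowest well-measured signal of 26.4, and with another background correction, normexp, the ratios were 0.67 and 0.66, below 2-fold.

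*Nlrc5* gave the widest span of the 10 genes. Its brighter probe read 105 ± 11.9 in Colon26, 2814 ± 281 in LuM1 and 1771 ± 177 in NM11. It was 26.8-fold higher in LuM1 than in Colon26 (4.75), 16.9-fold higher in NM11 than in Colon26 (4.08) and 1.59-fold higher in LuM1 than in NM11 (0.67). Its dimmer probe was not well above background in Colon26, at 24.6 ± 6.38, and read 89.8 in LuM1 and 50.4 in NM11. As scaled here, that probe gave a ratio over Colon26 of at least 3.40-fold in LuM1 and at least 1.91-fold in NM11. Under other processing the log2 bounds weakened to 0.62 and 0.30, within 2-fold. The dimmer probe too placed LuM1 above NM11 (0.83). Among all genes measured on both arrays, 53 of 12394 (0.428%) had a LuM1 over Colon26 ratio at least as high as *Nlrc5*, and 46 of 12469 (0.369%) had an NM11 over Colon26 ratio at least as high.

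The genes whose signals followed *Nlrc5* most closely were *Ank3*, *Tnfrsf26*, *Panx1*, *Gprc5b* and *Rgs16*. Likeness was the Euclidean distance between log2 signals centred over the 3 arrays, among 12235 genes well above background on all of them, and ranged from 0.238 for *Ank3* to 0.344 for *Rgs16*. With 3 points per gene this is a description only. *Ank3*, which encodes the membrane adaptor ankyrin-G, read 108, 2496 and 1448 in Colon26, LuM1 and NM11, and *Panx1*, a channel gene, read 141, 2856 and 1908.

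By the brightest probe of each gene, LuM1 exceeded Colon26 by 2-fold or more for 6 of the 10 genes, against 13.1% of all genes with a ratio. These were *B2m*, *H2-D1*, *Psmb8*, *Psmb9*, *Erap1* and *Nlrc5*. None was at least 2-fold lower, where 11.8% of all genes were. In NM11, 5 of the 10 were at least 2-fold higher than in Colon26 (*B2m*, *Psmb8*, *Psmb9*, *Erap1* and *Nlrc5*), with 8.33% of all genes, and none was lower, with 7.90%. Between LuM1 and NM11 none of the 10 was past 2-fold, with 11.1% of all genes higher in LuM1 and 8.50% lower. Both sets of ratios over Colon26 use the same Colon26 array, so they are not independent of each other. The 10 genes were chosen with earlier results of these data known, so their counts beside those of all genes are a description only.

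The median log2 ratio of the 10 genes was 1.30 for LuM1 over Colon26, 0.89 for NM11 over Colon26 and 0.26 for LuM1 over NM11, and the medians over all measured genes were -0.13, -0.02 and -0.11. The ratio was above 0 for 9, 9 and 7 of the 10, and for 41.7%, 48.0% and 43.0% of all measured genes. It was beyond the scanner error, in either direction, for 7, 8 and 4 of the 10, and of the 8 in NM11 over Colon26 *H2-D1* and *Tapbp* fell within it with scaling to *Hprt* or E1A. Some scalings shift every ratio. For LuM1 over Colon26, the authors' processed values moved the median of all genes by 0.45, no scaling by 0.11 and *Hprt* by 0.10. For NM11 over Colon26, *Hprt* moved it by -0.49 and E1A by -0.32. For LuM1 over NM11, *Hprt* moved it by 0.59, the authors' values by 0.41, E1A by 0.32 and no scaling by 0.18. The share of calls over all genes that were higher was 52.5%, 51.3% and 56.6% in the 3 comparisons. It became 77.7% for LuM1 over Colon26 with the authors' values, and 20.1% and 29.1% for NM11 over Colon26 with *Hprt* and E1A. For LuM1 over NM11 it became 87.8%, 81.4%, 77.2% and 68.6% with *Hprt*, the authors' values, E1A and no scaling. The median of the 10 genes was also set against the median of all genes under the same setting. It lay higher by 1.13 to 1.64 for LuM1 over Colon26 and by 0.63 to 1.14 for NM11 over Colon26. For LuM1 over NM11 it lay higher by 0.19 to 0.61. A factor common to an array cancels from these differences, so they cannot show how far the result depends on such a scaling. The ends of the ranges came from normexp, quantile normalization or no filter on dim probes.

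**Figure D3:**
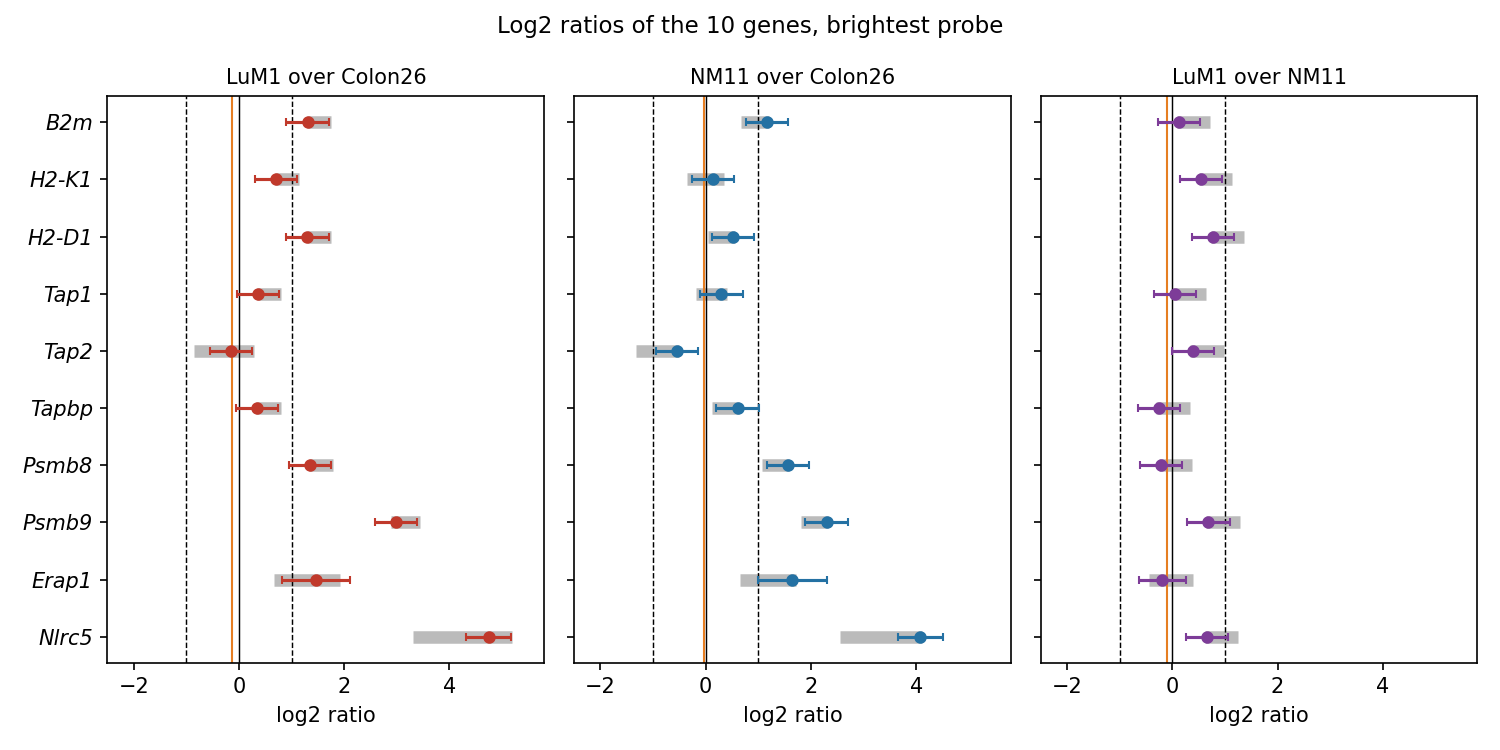
Log2 ratios of the brightest probe of each of the 10 genes in the 3 comparisons of lines, with 1.96 times the scanner error as bars and the range over 12 alternative settings as grey bands. Dashed lines mark 2-fold and the orange line the median of all measured genes. *Psmb9* and *Nlrc5* stay right of 2-fold in both comparisons with Colon26 under all settings, and bands that cross 0, such as those of *Tap1* and *H2-K1* for NM11 over Colon26, change sign with the scaling.

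Transcription factors of class I genes were examined next, as 13 genes that were all measured. For LuM1 over Colon26, 3 were at least 2-fold higher and none lower, where 13.1% of all genes were higher and 11.8% lower. For NM11 over Colon26, 4 were higher and none lower, where 8.33% of all genes were higher and 7.90% lower. *Stat2*, which carries the type I interferon signal to the nucleus, read 296, 1083 and 2123 in Colon26, LuM1 and NM11, with ratios of 1.87 and 2.84 over Colon26. A second *Stat2* probe was well above background in NM11 alone, at 44.1. It gave a bound of 0.74 for NM11 over Colon26, within 2-fold, and no ratio for LuM1 over Colon26. *Irf9*, the DNA-binding partner of STAT2, read 421, 1140 and 2509 (1.44 and 2.57). *Irf1*, an activator of class I and immunoproteasome genes, read 2323, 4751 and 9223 (1.03 and 1.99), and *Rfx5*, a subunit of the factor that binds the class I promoter module, read 34.3, 49.9 and 73.0 (0.54 and 1.09). The *Rfx5* ratio in NM11 was within 2-fold with *Hprt*, E1A, normexp or the mean over probes, at 0.47 in the lowest case, and a second *Rfx5* probe was not well above background on any array. For *Irf9* a second probe gave 0.26 and 1.40, and for *Irf1* a second probe gave 0.82 and 1.89, so that with the mean over probes both were within 2-fold in LuM1 (0.85 and 0.93).

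*Stat2*, *Irf1* and *Irf9* read higher in NM11 than in LuM1, with LuM1 over NM11 ratios of -0.97, -0.96 and -1.14, whereas *Nlrc5*, *Psmb9* and *H2-D1* read higher in LuM1 (0.67, 0.69 and 0.78). None of these 6 signs turned under the alternatives run. Neither set was uniform, since *Nfya* and *Rfxank* among the factors read higher in LuM1 (0.85 each), while *Psmb8*, *Tapbp* and *Erap1* read higher in NM11 by less than the error, with signs that turned under some scalings. The remaining factors, among them *Nfya*, *Nfyb* and *Nfyc*, which encode the complex that binds the CCAAT box, and *Rela* and *Nfkb1* of NF-kB, stayed within 2-fold in the comparisons with Colon26.

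Of 10 genes of interferon receptor signalling, *Jak2* and *Socs3* were at least 2-fold higher than in Colon26 in each subline and none was lower. Of all genes, 13.1% were higher in LuM1 and 8.33% in NM11, so a count of 2 is close to the background. *Jak2*, a kinase of the interferon-gamma receptor, read 557, 2333 and 1285 (2.07 and 1.21), and *Socs3*, a feedback inhibitor of JAK kinases, read 2583, 12770 and 8941 (2.31 and 1.79). The receptor genes *Ifngr1*, *Ifngr2*, *Ifnar1* and *Ifnar2* were within 2-fold by their brightest probes, with ratios over Colon26 between -0.29 and 0.72. The *Ifnar2* probes disagreed. The brighter one gave -0.15 and -0.29, a second one, at 404, 906 and 890, gave 1.17 and 1.14, and the mean over probes gave 0.51 and 0.42. With scaling to *Hprt* or E1A, *Jak2* in NM11 fell within 2-fold.

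Of 6 peptide-loading chaperones and their partners, *Calr*, *Canx*, *Pdia3*, *Tapbpl*, *Uggt1* and *Bcap31*, none was past 2-fold in any comparison by its brightest probe. Of all genes, 7.90% to 13.1% were past 2-fold in each direction of a comparison, so this count is close to the background. *Canx*, the chaperone that holds new heavy chains, was the highest of them, with ratios of 0.75 for LuM1 and 0.90 for NM11 over Colon26, and it passed 2-fold in LuM1 after quantile normalization or with the authors' values and in NM11 with the mean over probes. A second *Canx* probe, at 3481, 7010 and 7674, was past 2-fold in both (1.01 and 1.14).

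Other class I and class I-like genes were measured by 22 named genes, of which 5 were well above background on no array (*H2-Bl*, *H2-Q1*, *H2-M5*, *H2-M10.1* and *Azgp1*). For LuM1 over Colon26, 12 of the 17 with a ratio were at least 2-fold higher and none lower, against 13.1% and 11.8% of all genes, with a median over measured genes of 1.39. With normexp *H2-M11* (0.60) and *Mr1* (0.89) were within 2-fold there. For NM11 over Colon26, 4 of the 16 with a ratio were higher (*H2-T10*, *H2-T22*, *H2-M11* and *Hfe*) and none lower, against 8.33% and 7.90% of all genes, with a median of 0.71. Of these 4, *Hfe* alone stayed past 2-fold with scaling to *Hprt*, where *H2-T10* gave 0.89 and *H2-T22* 0.72. With E1A *H2-T22* and *H2-M11* were within 2-fold too, and *H2-M11* also with no scaling or normexp. *H2-T23*, the gene of the nonclassical molecule Qa-1, read 12478, 36116 and 24836 (1.53 and 0.99), and *H2-Q2*, *H2-Q7*, *H2-Q8* and *H2-Q10* gave ratios of 1.29 to 1.54 in LuM1 and 0.58 to 0.81 in NM11 by their brightest probes. *H2-Q4*, at 22401, 30944 and 21780, gave 0.47 and -0.04. *H2-T3* gave -0.82 and 0.08, *H2-M3* 0.35 and -0.27, and *H2-T24* 0.25 and -0.01. *H2-M9* was well above background in Colon26 alone, with bounds of -0.77 and -0.81. Both were past 2-fold with no filter on dim probes, and the NM11 bound also with *Hprt* or E1A. The dimmest of 3 *H2-Q7* probes gave 2.23 and 1.87. A second probe of *Mr1* was likewise past 2-fold in NM11 (1.42), where its brightest was not (0.42). These probes can share signal with those of *H2-K1* and *H2-D1*, so they are not separate evidence.

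Members of this list that are less alike in sequence were not uniform. *Hfe*, an iron-regulating class I-like gene, read 66.4, 1398 and 402, which was 21.1-fold higher in LuM1 than in Colon26 (4.40) and 6.06-fold higher in NM11 (2.60). *Fcgrt*, the neonatal Fc receptor, read 657, 1843 and 613, higher in LuM1 than in either other line (1.49 over Colon26 and 1.59 over NM11). *Cd1d1*, which presents lipids, was well above background in LuM1 alone, at 183, and at least 6.92-fold above Colon26 and 9.34-fold above NM11. Under other processing these log2 bounds weakened to 1.63 and 1.69, still past 2-fold. The products of *Hfe*, *Fcgrt* and *Cd1d1* all bind beta-2 microglobulin in their mature form.

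**Figure D4:**
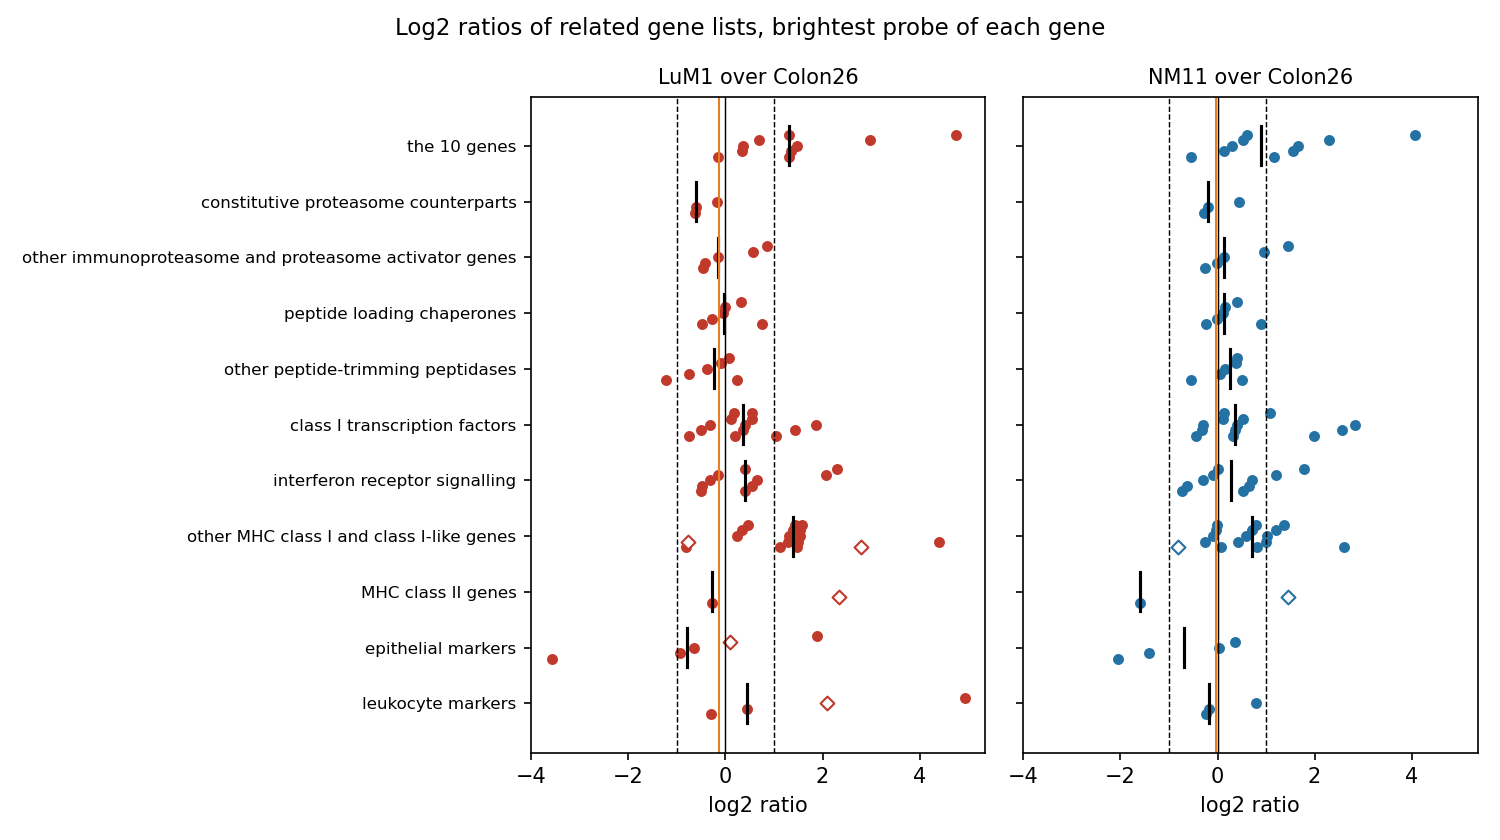
Log2 ratios (x axis) for LuM1 over Colon26 and NM11 over Colon26 of the 10 genes and of the 10 related lists, with 1 point per gene from its brightest probe. Diamonds are bounds, black bars the medians of measured genes, dashed lines 2-fold and orange lines the median of all genes. The medians of the 10 genes (1.30 and 0.89) and of the other class I genes (1.39 and 0.71) lie furthest to the right in both panels.

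Markers of other cells were read on the same arrays, and their part in the results above was not tested. Of 9 leukocyte markers, 3, 4 and 3 were well above background in Colon26, LuM1 and NM11, where 49.9%, 53.8% and 52.5% of all probes were. *Ptprc*, *Ms4a1*, *Nkg7*, *Itgax* and *Adgre1* were not well above background on any array. *Itgam*, an integrin of myeloid cells, read 5027, 6818 and 4251 by its brighter probe. A second probe of it read 63.4 in Colon26, was not well above background in LuM1 and read 31.0 in NM11. *Cd68*, a macrophage lysosomal gene, read 172, 5251 and 299, *Cd3e*, of the T cell receptor complex, read 628, 509 and 553, and *Lyz2*, a myeloid lysozyme gene, was well above background in LuM1 alone, at 112. Of 10 epithelial markers, 4, 5 and 4 were well above background, which is close to the same shares of all probes. *Cdh1*, *Krt18*, *Krt19*, *Vil1* and *Cdx1* were not well above background on any array. *Krt20* (651, 54.5 and 157), *Cdx2* (443, 232 and 167), *Cldn7* (91.4, 58.1 and 93.6) and *Krt8* (28.9, 108 and 37.1) were on all arrays, and *Epcam* in LuM1 alone (28.0).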

How the data were processed

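The authors deposited the intensity of each spot from Agilent Feature Extraction 11.5.1.1, background-subtracted and detrended on the array without scaling between arrays, with flags of 0 or 1 per spot. They also deposited processed intensity values, in which all scanner values of an array were multiplied by a constant, 0.654 in Colon26, 0.829 in LuM1 and 0.706 in NM11. Control and outlier spots were left out, repeated spots averaged, and each array scaled to its 75th percentile, 585 after scaling. Probes were named through RefSeq accessions of GRCm38.p6, while the array design used mm9, so only promoter coordinates of GRCm38.p6 are given. Where a gene had several probes, the brightest stood for it.

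The members and the 10 gene lists were chosen with earlier results of these data known. The text names all members, up to 3 list genes past 2-fold per list with any that a small count singles out, and the 5 genes nearest to *Nlrc5*, with others chosen after their values were seen. *Psme2*, *Nrdc*, *H2-L*, *H2-T9*, *H2-Q6*, *H2-M2*, *Cd1d2* and *H2-Ea-ps* of the lists were not named on the array, and 2 further list genes are not reported here.

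The scanner error is 10.0% of bright signals. Spots of repeated probes had a median SD of 0.035 to 0.040 (log2). Python 3.11.15, numpy 2.4.6, pandas 2.3.3 and matplotlib 3.10.9 were used, with R 4.3.3 and limma 3.58.1 for normexp (offset 50), run on the median spot brightness. The procedure was tested on simulated data with changes larger than 2-fold in bright genes. That test did not cover smaller changes, dim probes or bounds. The paper's other experiments were not analysed here.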

Additional observations from a re-analysis of the deposited data

How the results depend on the processing

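The 30 ratios of the 10 genes were recomputed under 12 alternatives: other scalings, normexp, the authors' processed values, other rules for dim, outlying or several probes and, chosen after seeing the data, the 75th percentile over distinct probes. All 11 ratios past 2-fold kept their sign under these 12, and 8 stayed past 2-fold, the exceptions being *B2m* in NM11 with *Hprt* (0.68) and E1A and *Erap1* in both sublines with normexp. Of 19 ratios within 2-fold, 13 stayed there and 7 changed sign somewhere. With a 4-fold threshold, 2 of the 10 genes were higher in LuM1 and 2 in NM11, both over Colon26, where 5.98% and 3.39% of all genes were. For LuM1 over Colon26 the median was 1.003 with normexp and 1.75 with the authors' values. For NM11 over Colon26, 1 gene (*Tap2*) was lower with *Hprt* and 1 with the mean over probes, where 20.1% and 7.63% of all genes were. The median of the 10 genes there was 0.40 with *Hprt*, 0.56 with E1A and 0.60 with normexp. For LuM1 over NM11, 4 genes were higher with *Hprt*, 2 with E1A, 1 with quantile normalization and 3 with the authors' values. Of all genes, 25.3%, 16.7%, 10.5% and 19.3% were higher under these settings. The median of the 10 genes was 0.85, 0.59, 0.57 and 0.67. The mean over probes gave *Nlrc5* ratios of 3.31 and 2.56 over Colon26. Over all genes and these alternatives at 2-fold, 1327 to 3037 genes were higher and 874 to 2716 lower in LuM1 than in Colon26 (1855 and 1679 as reported), 686 to 1810 and 635 to 2727 in NM11 (1152 and 1092), and 1014 to 3581 and 498 to 1843 in LuM1 against NM11 (1599 and 1225).

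No paired analysis was possible because there was 1 array per line. The number of arrays limits the precision, and below a scaled signal of 26.4 in Colon26, 20.1 in LuM1 and 19.6 in NM11 only bounds can be had. Spots above background on the Colon26 array alone made up at most 5.36% of those near a spot of the 10 genes (*Tapbp*), and 1.89% of the array. The cause of the shifts between scalings was not tested.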

Other observations

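MHC class II genes, which present peptides from outside the cell, were mostly below background, and 7 of 11 named ones (*H2-Aa*, *H2-Ab1*, *H2-Eb1*, *H2-Eb2*, *H2-DMb1*, *H2-DMb2* and *H2-Ob*) were well above background on no array. In Colon26, LuM1 and NM11, 1, 3 and 3 of the 11 were well above background, where 49.9%, 53.8% and 52.5% of all probes were. *Ciita*, the coactivator of class II genes and a relative of *Nlrc5*, was not well above background in Colon26 (5.72) and read 133 in LuM1 and 72.5 in NM11, at least 5.03-fold and at least 2.74-fold higher by its brighter probe, while its other probe was not well above background on any array. The NM11 ratio was within 2-fold with *Hprt*, normexp or the mean over probes, and the LuM1 ratio with the mean over probes (0.52). *H2-DMa*, which loads class II peptides, read 138 in Colon26, 113 in LuM1 and 45.5 in NM11, with a ratio of -1.60 for NM11 over Colon26 and of 1.32 for LuM1 over NM11, and both were within 2-fold with normexp.

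Of 6 other peptidases that trim or destroy class I peptides, none was at least 2-fold higher in a comparison. Of all genes, 8.33% to 13.1% were higher in a comparison, so none of 6 is close to the background, and 7.90% to 11.8% were lower. *Thop1*, a cytosolic oligopeptidase, read 1057 in Colon26, 452 in LuM1 and 1098 in NM11 and was the only one past 2-fold against Colon26, with a log2 ratio of -1.23 in LuM1. *Lap3*, a leucine aminopeptidase, read 12020, 7148 and 15641, with -1.13 for LuM1 over NM11, which was within 2-fold with no scaling, *Hprt*, E1A, quantile normalization or the authors' values (-0.54 with *Hprt*). With the authors' values *Thop1* was within 2-fold in LuM1 against Colon26 (-0.78).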
